A study of Caenorhabditis elegans with 2 samples.

Results

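Histones are the proteins around which DNA is wound. H2A, H2B, H3 and H4 form the nucleosome core, histone H1 binds the linker DNA between nucleosomes, and H3.3 is a variant of H3 that can be laid down outside S phase. In Caenorhabditis elegans most core histone genes are called his- and lie in clusters of divergent pairs, H2A beside H2B and H3 beside H4. Many of these genes are near-identical copies of each other, and their transcription is tied to DNA replication. ETS-5 is a transcription factor of the ETS family, which binds DNA around a GGAA core. It is best known for its role in the BAG neurons, a pair of head neurons that sense respiratory gases.

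The genes described are all 72 nuclear protein-coding genes whose name starts with his-, of 19973 in the annotation. For each gene, the highest signal was taken among the regions whose summit, the position of strongest enrichment, lay within 1000 bp of an annotated start. A gene was called clustered where another his- gene had a start within 5000 bp. That gave 67 clustered genes and 5 single genes, in 20 loci, 15 of which held several genes. The RefSeq products named every one of them a histone or a histone-domain protein: 17 H2A, 16 H2B, 15 H3, 16 H4, 5 of H3.3 type, 1 H1 (his-24) and 2 named only for a histone domain (his-39 and his-73).

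The measurement was chromatin immunoprecipitation with sequencing (ChIP-seq), made with an antibody against GFP in 1 group with 2 biological replicates. The animals were whole L1 larvae, starved after bleaching and taken at 6 hours, of strain OP809. This strain carries the transgene wgIs809, ets-5::TY1 EGFP 3xFLAG together with unc-119(+), in an unc-119 (tm4063) background, so both replicates share the transgene, the mutation and the starvation. No strain without the tag and no input sample was analysed here, and with 1 group there is no comparison of conditions and no test. In chromatin of whole larvae, strong binding in few cells and weak binding in many cells cannot be told apart.

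The deposited regions come as ranked lists, which are long, and as much shorter lists that pass the authors' threshold on the irreproducible discovery rate (IDR), a measure of how poorly a region's rank recurs between compared lists. The series ranked list held 126002 regions, of which 250 passed. The ranked lists held 108309 regions in replicate 1 and 92443 in replicate 2, of which 21 and 26 passed. Each region has a signal given by the authors, on a scale they do not state, and values are compared only within a list. A percentile places a gene's highest signal among all 19973 genes in the same list, where genes with no region share the lowest value, 3.36 in the series list. A high rank in these long lists is not a binding call.

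No histone gene had a region that passed the threshold. In the series passing list 0 of 72 histone genes had a region within 1000 bp, where 0.741% of all genes (148 of 19973) did. The count was also 0 of 72 in the conservative passing list (0.506% of all genes), in that of replicate 1 (0.0601%) and in that of replicate 2 (0.0901%). The share of 0.741% is less than 1 gene in 72, so a count of 0 does not set the histone genes apart.

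In the ranked lists the histone genes lacked regions far more often than other genes. A ranked region lay near 43 of the 72 in the series list, where 93.3% of all genes had one. In replicate 1 the count was 44 of 72 against 91.6% of all genes, and in replicate 2 it was 40 of 72 against 87.4%. No region in any of these 3 lists was found for 25 histone genes (34.7%), compared with 2.86% of all genes. The median percentile of the 72 genes was 19.9 in the series list, 24.2 in replicate 1 and 16.1 in replicate 2. Only 16 of the 72 lay above the median of all genes in the series list, and 11 did so in both replicates, where 30.9% of all genes did.

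Where a histone gene had a region in the series list, its signal was not far from that of other genes. The 43 genes ran from 6.73 to 79.2 with a median of 34.1, and the median over all genes with a region was 37.002. The replicates differed: the medians were 22.0 against 21.8 over all genes in replicate 1, and 16.2 against 19.7 in replicate 2. Above the median percentile of all genes lay 26 histone genes in replicate 1 and 13 in replicate 2. The 43 genes with a series region had only 28 distinct best regions, because 30 of them shared their region with a neighbour.

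**Figure D1:**
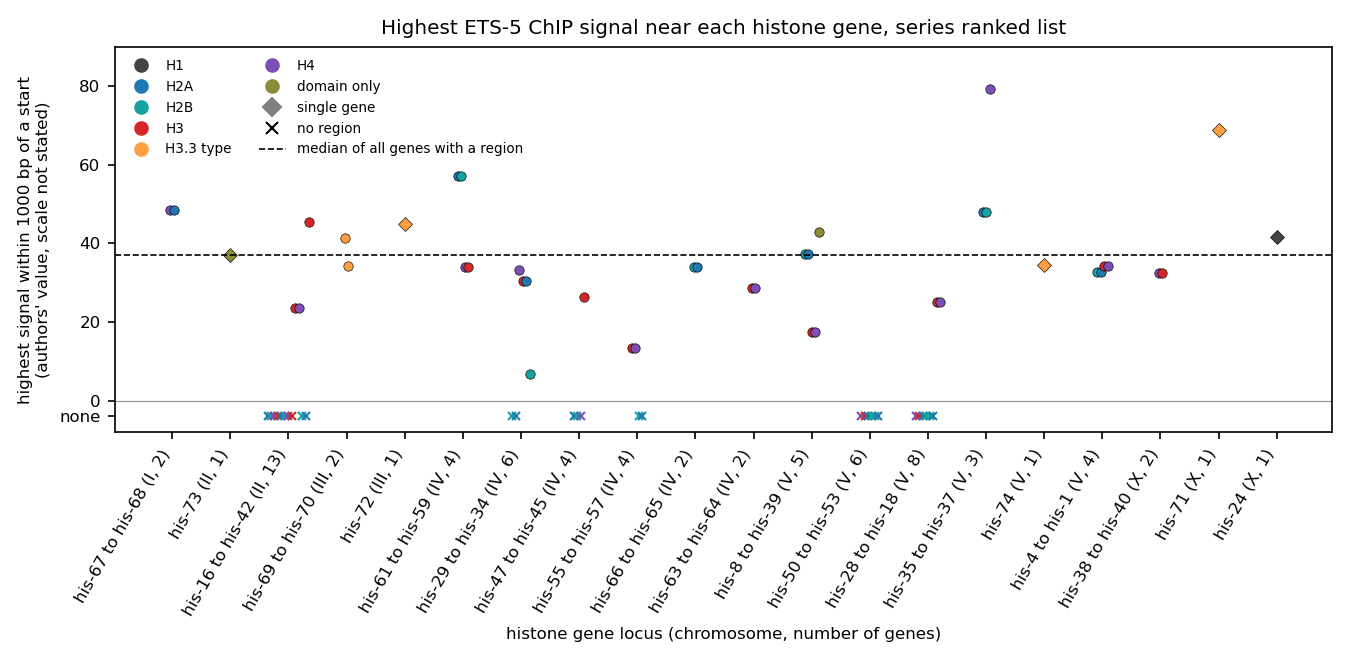
Highest signal within 1000 bp of a start in the series ranked list (y axis, authors' value, scale not stated) for the 72 histone genes at 20 loci (x axis). Each point is 1 gene coloured by histone type, diamonds are the 5 single genes, crosses are the 29 genes with no region in this list, and the dashed line at 37.002 is the median of all genes with a region. Paired genes that share a region lie side by side at the same height, his-37 and his-71 stand highest at 79.2 and 68.8, and the crosses fall mostly in runs of neighbouring genes on II, IV and V.

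The H2A and H2B genes, which form the outer dimers of the nucleosome core, most often lacked a region. Among H2A genes 7 of 17 had one in the series list, and among H2B genes 6 of 16, so the median percentile of each was the lowest possible, 3.36. Part of the 50-base words around each start occur only once in the genome. The median share of such words was 30.7% for H2A, 18.4% for H2B, 28.9% for H3 and 49.7% for H4 genes. Identical copies count as separate genes here, and the part of repeated sequence in the difference between types was not tested. In the series list the best region of the H2A genes and of the H2B genes was the same one. Its summit lay at position 7486723 of chromosome IV, in the coding exon of his-62. It lay −506 bp from the start of his-61 (H2A) and +178 bp from that of his-62 (H2B), and its signal was 57.3 in the series list, 28.3 in replicate 1 and 31.9 in replicate 2. Those values put the pair at percentiles 92.3, 80.1 and 94.0, high in all 3 lists. The global IDR was 0.0299 in the series list, 0.664 in the conservative list, 0.297 in replicate 1 and 0.481 in replicate 2, and the region passed in none of them. The pair his-35 (H2A) and his-41 (H2B) shared a region of signal 47.9 in the series list, with 24.997 in replicate 1 and 16.2 in replicate 2, so it stood above the median of all genes in replicate 1 and below it in replicate 2. The series summit of this region lay −914 bp from the his-35 start and +666 bp from the his-41 start. That position is in untranslated exons of his-41 and of the gene C50F4.6, not between the divergent starts. The lowest best region in the series list was that of his-34 (H2B), at 6.73, and neither replicate list held a region for that gene.

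The H3 and H4 genes, whose tetramer forms the centre of the nucleosome, had a region in 11 of 15 and in 11 of 16 cases. Their median percentiles in the series list were 21.5 and 19.9. The highest of all 72 genes in the series list and in replicate 2, but not in replicate 1, was his-37. This H4 gene, at V 9547105 to 9547607 on the plus strand, lies in a locus with his-35 and his-41. Its region, V 9546837 to 9547146, had its summit between genes at −113 bp from the annotated start. The signal was 79.2 in the series list, 30.1 in replicate 1 and 42.7 in replicate 2, at percentiles 99.3, 85.01 and 99.3. With a rank of 276 in the series list and a global IDR of 0.0144 it came close to the passing regions, whose highest global IDR was 0.00998, and did not pass. Its global IDR was 0.0251 in the conservative list, 0.553 in replicate 1 and 0.0599 in replicate 2.

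His-67 (H4) and his-68 (H2A) share 1 region on chromosome I with a signal of 48.6 in the series list, 24.6 in replicate 1 and 24.3 in replicate 2, above the median of all genes in each. The remaining H4 genes with a region ran from 13.5 to 34.3. Among the H3 genes the range was 13.5 to 45.5, and only his-42, at 45.5, lay above the median of all genes. The replicates differed at his-42, with a signal of 31.3 (percentile 93.0) in replicate 2 and 13.8 (percentile 21.0) in replicate 1. This was the widest gap between replicates of any histone gene. The next widest were at his-3 (H2A), with percentiles of 85.03 in replicate 1 and 19.1 in replicate 2 from summits 454 bp apart, and, tied, at his-1 (H4) and his-2 (H3), which share a region, with 74.6 and 16.1. The replicates thus placed these 4 genes on opposite sides of the median of all genes.

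All 5 genes of H3.3 type had regions in all 3 lists, where 81.7% of all genes did. His-71, named histone H3.3 type 1 and a single gene at X 7981382 to 7982070 on the minus strand, was the second highest histone gene in the series list. Its region, X 7981461 to 7981770, had its summit in the coding exon at +454 bp from the start, and was the only series region within the window. The signal was 68.8 in the series list, 30.4 in replicate 1 and 35.0 in replicate 2, at percentiles 97.9, 85.9 and 96.8, with a global IDR of 0.0510 in the series list, 0.0333 in the conservative list, 0.335 in replicate 1 and 0.467 in replicate 2. His-72, named histone H3.3 type 2, reached 45.0 in the series list, with 26.0 and 20.9 in replicates 1 and 2, and its series summit lay in its own intron. The replicate 2 value belongs to another region, with a summit 969 bp from that of replicate 1. The H3.3-like genes were lower in the series list: his-69 was at 41.5, his-74 at 34.5 and his-70 at 34.2. That order did not hold in replicate 1, where his-69 was the highest of the 5, at 32.5 (percentile 90.1). There his-70 was at 23.8 and his-74 at 22.5. In replicate 2 his-69 was at 20.8, his-70 at 20.9 and his-74 at 11.0. Here too the replicates had separate best summits, 327 bp apart at his-69, 1071 bp at his-70 and 1495 bp at his-74. The best series summit of his-74 lay in an untranslated exon of the gene ccch-3. In the series list his-71 was the only one of the 5 past the 90th percentile, and his-70 and his-74 lay below the median of all genes.

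The H1 gene his-24, also a single gene, had a signal of 41.7 in the series list, 19.8 in replicate 1 and 21.3 in replicate 2, and lay just below the median of all genes in replicate 1 (percentile 44.8) and above it in replicate 2 (63.7). His-73, named only for its histone domain, was at 37.2 in the series list, 33.8 in replicate 1 and 25.7 in replicate 2, at percentiles 53.8, 92.1 and 80.9. Its value in replicate 1 was the highest of all histone genes in that list. The best series summit of his-73 lay in an intron of the gene W09H1.4, with the replicate summits 869 bp apart. His-39, the other gene named only for its domain, was at 42.9.

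The 5 single genes, his-24, his-71, his-72, his-73 and his-74, all had a region, at percentiles from 45.7 to 97.9 with a median of 66.5. The 67 clustered genes included all 29 without a series region, and their median percentile was 11.1. The same order was seen in replicate 1 (22.9 clustered, 72.2 single) and in replicate 2 (14.3 clustered, 63.7 single). Neighbours in a cluster share regions, so the clustered genes are not 67 separate measurements.

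**Figure D2:**
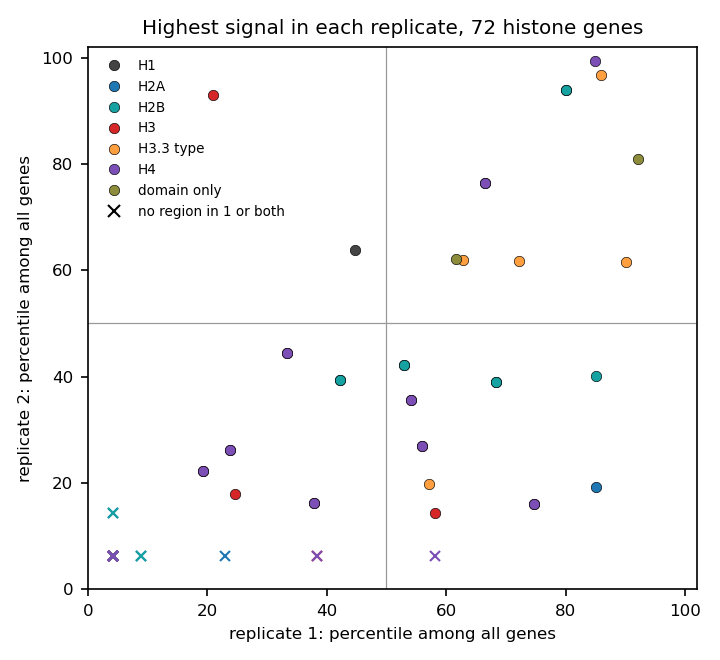
Percentile of each histone gene's highest signal among all genes in replicate 1 (x axis) and replicate 2 (y axis), coloured by histone type, with crosses for genes lacking a region in 1 or both replicates and grey lines at the median. Genes that share a region or lack one lie on top of each other. In the upper right stand his-37, his-71, the his-61 and his-62 pair, and his-73 (92.1 in replicate 1, 80.9 in replicate 2). His-42 at upper left shows the widest gap, 21.0 in replicate 1 against 93.0 in replicate 2.

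The genes without regions mostly stood next to each other. The 25 without a region in any of the 3 lists were his-9 to his-16 with his-43 and his-44 on chromosome II, his-46, his-47 and his-48 on IV, and his-49 to his-54 with his-19 to his-22, his-27 and his-28 on V. The conservative ranked list, which is not among the 3, held a region for 3 of these 25. They were his-15 and his-16, which shared one of signal 19.7, and his-47 (12.4). Of the 4 further genes with no series region, his-57 and his-58 shared a region in replicate 1 (signal 4.52) and his-29 and his-30 shared a region in replicate 2 (7.24).

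The longest empty stretch lay on V. Between the summits at 8812701 and 8882076, 69375 bp held no series summit, the sixth longest such gap in the genome, where the median gap was 602 bp. It contained his-50, his-49, his-51, his-52, his-54 and his-53. From 8882076 to 8897361 a second gap of 15285 bp contained his-28, his-27, his-21, his-22, his-20 and his-19. These blocks are copies of each other: V 8840017 to 8855303 and V 8882112 to 8897398 are identical over 15287 bases, with 6 histone genes in each. On II, a gap of 7985 bp between series summits, from 13816790 to 13824775, held the 8 genes his-9 to his-16. The conservative list had a summit inside it, at 13817594.

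**Figure D3:**
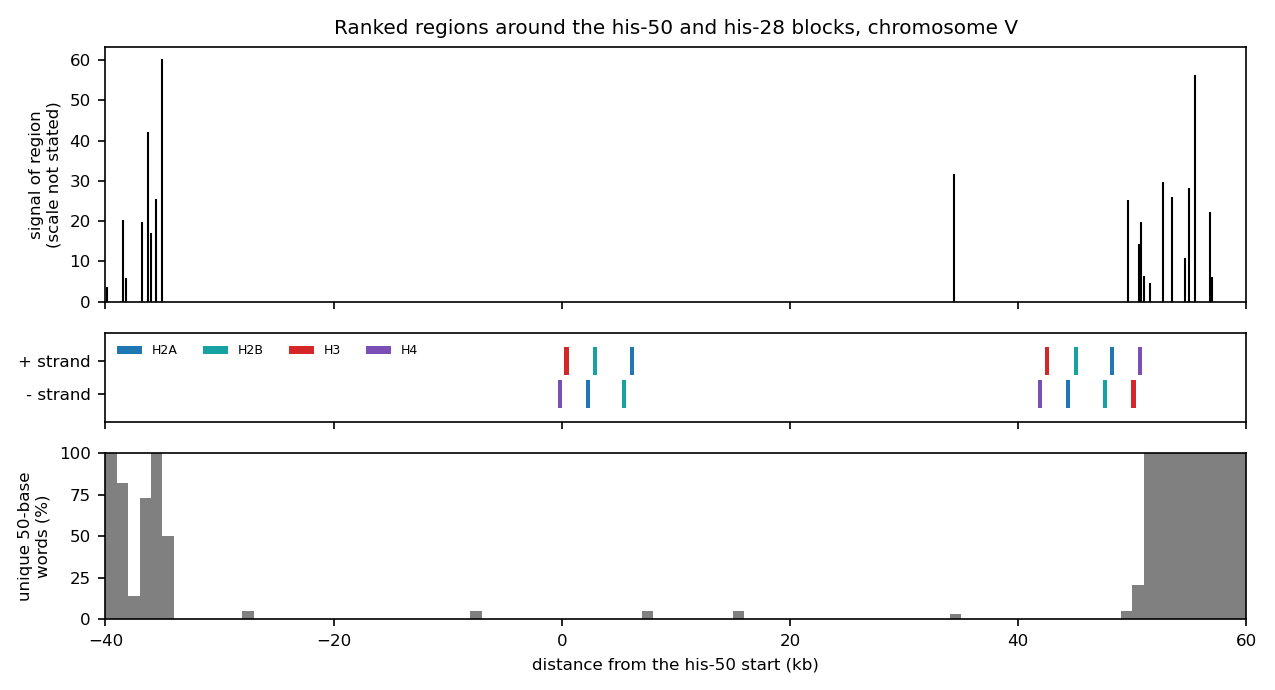
Map of 100 kb of chromosome V as distance from the his-50 start (x axis, kb): top, signal of the 21 series ranked regions (scale not stated), one line per summit; middle, the 14 histone genes by strand and type; bottom, share of 50-base words in each 1 kb bin that occur once in the genome (%). The 12 genes of the paired blocks stand in a stretch with 1 summit, between the blocks and almost no unique words; on the right, 4 summits come before the first bin of 100% unique words.

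How much of the sequence around each gene occurs only once in the genome was counted with words of 50 bases, both strands, within 1000 bp of the start. Genes with a series region had a median of 88.9% unique words, and the 29 genes without ran from 0 to 34.7% (his-47). Of the 30 histone genes with under 25% unique words, 26 had no region (86.7%). Of the 11 with 25% to under 50%, 3 had none. All 31 genes with 50% or more had a region. Genes other than histone genes showed the same order: 195 of 243 (80.2%) had no region at under 25% unique words, and 930 of 16700 (5.57%) at 95% or more. Among histone genes the median percentile was 3.36 in the lowest class, then 21.5, 29.5, 45.2 and 74.5 in the highest class, which held 13 genes. Among the other genes the medians in the same classes were 3.36, 23.4, 36.2, 52.5 and 51.2. The last step, from 45.2 to 74.5 in histone genes, was thus not seen in the other genes. Words of 36 and 100 bases put the same 29 genes under 50%.

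Repeated sequence and missing regions thus went together, but how reads that match several places were handled, and the read length, were not stated in any source used here. Absence of binding and reads that could not be placed cannot be told apart for these 29 genes. A region was not impossible in repeated sequence: 2 of the 28 best regions, that of his-17 and his-18 (signal 25.2) and that of his-34 (6.73), had no unique 50-base word in the 300 bases around their summits. The difference between clustered and single genes also moved with uniqueness, whose part in it was not tested. Among the 13 genes with at least 95% unique words, a limit chosen after the data were seen, the 9 clustered genes had a median percentile of 79.7 and the 4 single genes 69.8, ranked here only among the 16713 genes past that limit. The 9 are not separate measurements. His-67 and his-68, his-60 and his-59, and his-35 and his-41 each share a best region. The clustered median is the shared value of his-35 and his-41, so no order of the groups is read from it.

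**Figure D4:**
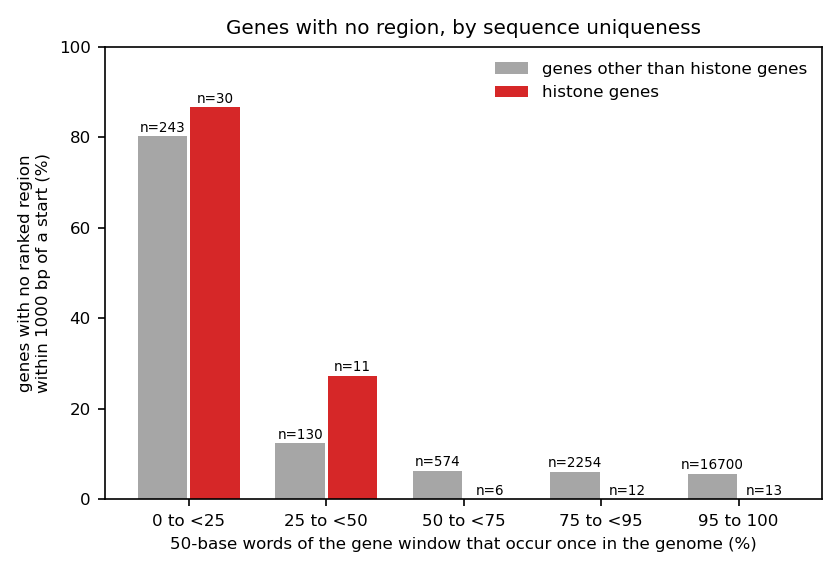
Share of genes with no ranked region within 1000 bp of a start in the series list (y axis, %) by share of unique 50-base words (x axis, %), for histone genes (red) and for the other protein-coding genes (grey), with the number of genes above each bar. In the lowest class the shares are 86.7% and 80.2%, and from 50% unique words upward no histone gene lacks a region.

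**Figure D5:**
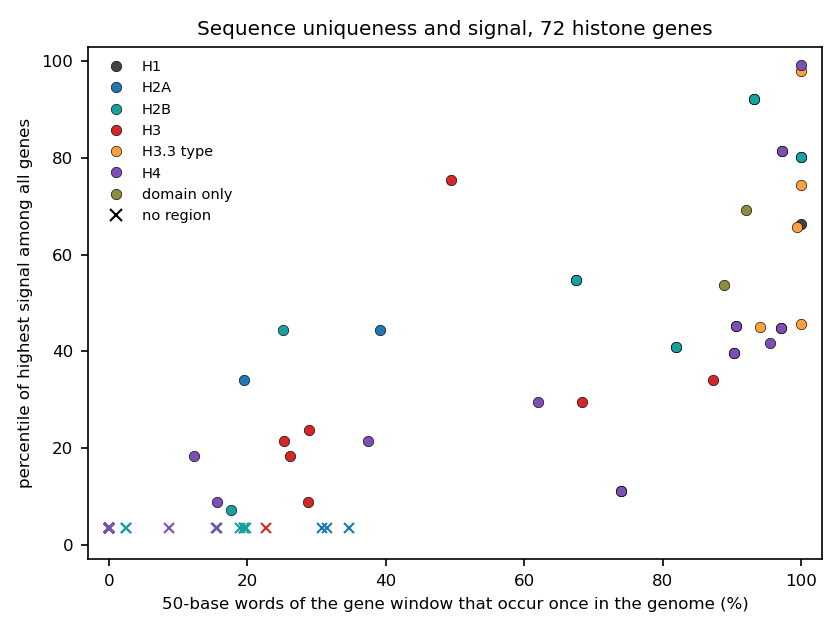
Share of unique 50-base words (x axis, %) and percentile of the highest signal among all genes in the series list (y axis) for the 72 histone genes, coloured by histone type, with crosses for genes with no region. Genes that share both values lie on top of each other; the crosses all lie below 50% unique words, and his-42, at 75.5, is the one gene under 50% with a percentile above the median of all genes.

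The DNA between divergent histone starts is printed for 5 pairs and the DNA upstream of the start for his-37. They show what an identical copy, a diverged pair and the histone gene highest in the series list look like. The letters are the plus strand of WBcel235, read from the RefSeq genome. The pair segments leave out 40 bases at each end. Capitals mark TATAAA, the TATA box word, and GGGGACA, a word noticed when these sequences were read, each on either strand.

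his-50/his-49 (chrV:8847745-8847902): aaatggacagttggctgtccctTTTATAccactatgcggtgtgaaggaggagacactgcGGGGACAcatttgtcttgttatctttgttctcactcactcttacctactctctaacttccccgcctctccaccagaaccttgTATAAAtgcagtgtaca

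his-28/his-27 (chrV:8889840-8889997): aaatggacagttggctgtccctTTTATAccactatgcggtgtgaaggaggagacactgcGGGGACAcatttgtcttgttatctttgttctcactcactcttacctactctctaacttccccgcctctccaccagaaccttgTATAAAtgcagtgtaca

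his-60/his-59 (chrIV:7488033-7488208): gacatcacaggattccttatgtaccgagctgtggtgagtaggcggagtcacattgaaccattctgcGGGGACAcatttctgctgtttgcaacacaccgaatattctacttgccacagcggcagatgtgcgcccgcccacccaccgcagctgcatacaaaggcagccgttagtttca

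his-51/his-52 (chrV:8850212-8850423): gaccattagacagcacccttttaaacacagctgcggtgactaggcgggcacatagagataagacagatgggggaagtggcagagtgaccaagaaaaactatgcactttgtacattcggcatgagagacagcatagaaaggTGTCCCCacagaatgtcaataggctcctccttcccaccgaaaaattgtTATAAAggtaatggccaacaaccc

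his-61/his-62 (chrIV:7486258-7486504): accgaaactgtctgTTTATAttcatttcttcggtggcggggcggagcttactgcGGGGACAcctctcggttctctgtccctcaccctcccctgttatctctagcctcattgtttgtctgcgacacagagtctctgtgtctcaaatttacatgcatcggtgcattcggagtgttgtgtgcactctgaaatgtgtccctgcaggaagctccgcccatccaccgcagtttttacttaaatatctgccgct

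his-37 (chrV:9546905-9547104): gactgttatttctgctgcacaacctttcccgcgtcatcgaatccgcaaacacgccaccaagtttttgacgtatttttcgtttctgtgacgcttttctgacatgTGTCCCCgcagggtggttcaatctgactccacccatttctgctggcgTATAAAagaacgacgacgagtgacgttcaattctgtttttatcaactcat

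The first and second of these, from H4 and H3 pairs with no region in any of the 3 lists, are identical in every base. The third, from another H4 and H3 pair, matches the first at 50.8% of aligned positions, and that pair had a region of signal 34.1 with its summit inside the segment. The H2A and H2B segments of his-51/his-52 (no region) and his-61/his-62 (best region 57.3) matched at 45.1%. The summit of that region lay outside the segment, in the coding exon of his-62. Aligned to the other strand, the same 2 comparisons gave 49.5% and 48.9%, so both identities are near those of a comparison in the reverse orientation. Closer relatives exist for both partners. Over the whole segment, his-60/his-59 matched his-63/his-64 at 85.5%, and his-61/his-62 matched his-47/his-48 at 79.2%. Each of the 6 printed sequences holds GGGGACA 1 time, and 5 of them hold TATAAA.

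Over all 31 segments between divergent histone starts, 16 lay in H2A and H2B pairs, 14 in H3 and H4 pairs, and 1 between his-67 and his-68. They amounted to 21 distinct sequences, since 16 segments had an identical copy elsewhere. The 14 segments with no region near either flanking gene matched their closest copy at 92.8% to 100%. Of the 17 with a region, the segment between his-67 and his-68 had no other of its kind to compare, and the remaining 16 matched theirs at 50.4% to 100%, with a median of 94.0%. A series summit lay inside only 7 of the 31 segments.

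GGGGACA was found, on either strand, in 47 of 72 histone promoters (65.3%), taken as 250 bases before to 50 after the start, where 1.55% of all promoters held it (309 of 19973). Of the 29 genes without a series region 26 held it (89.7%), and 21 of the 43 with one (48.8%). Absence of binding and unplaced reads cannot be told apart for the 29 genes, so no relation of the word to the signal is read from these shares. Copies and divergent neighbours share these promoters, so the 47 are not separate occurrences. TATAAA was in 47 histone promoters as well, where 37.95% of all promoters held it. The ETS core GGAA was in all 72 and in 95.1% of all promoters. The longer ETS word CCGGAA, which contains it, was in 0 of 72 histone promoters, where 8.55% of all promoters held it. CGCGCA was in 3 histone promoters (4.17%), all 3 of single genes, and in 6.08% of all promoters, and GCGCGC was in 1 histone promoter against 3.57%. Histone promoters had a GC content of 47.3% ± 4.68 (SD over 72 genes), and all promoters 34.8% ± 5.29 (SD over 19973).

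Most best summits did not lie at the start. Of the 43 histone genes with a series region, 12 (27.9%) had the best summit within 250 bp of a start, where 28.0% of all genes with a region did. In 64 of the 72 gene models, which are the coding sequence alone, the annotated start is the start codon. In 38 histone genes both replicates had a region, and in 22 of those the best summits lay within 150 bp of each other. The share over all genes with both was 36.4%. In the series list histone genes had a median of 1.5 regions within the window, and all genes 3. Neighbours also share regions, so the 22 are not separate agreements. No better agreement at histone genes is read from these shares.

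Histone genes outside the his- name and genes that handle histones lie in mostly unique sequence, with at least 82.2% unique words in each. All 25 had a series region, where 93.3% of all genes did. None had a passing region, where 0.741% of all genes did, so neither count sets these 25 genes apart from all genes. Of the 11 other histone genes, 8 lay above the median of all genes in the series list, with a median percentile of 65.4, and 6 in replicate 1 (60.3) and 7 in replicate 2 (74.8). Hcp-3, the centromeric H3 variant, reached 78.8 in the series list, 27.6 in replicate 1 and 55.6 in replicate 2, with a global IDR of 0.0114 in the series list. The replicate 1 value belongs to another region, at +856 bp from the start, where the series and replicate 2 summits lay at −620 and −619 bp. Cpar-1, also a centromeric H3 variant gene, was at 67.8, 38.3 and 27.4, and hil-2, a linker histone gene, at 55.0, 24.3 and 30.9. Of the 14 genes for histone chaperones and processing, 11 lay above the median of all genes in the series list, and the median percentile was 82.3. In each replicate 8 of the 14 did, with median percentiles of 61.9 in replicate 1 and 51.98 in replicate 2. Hat-1, a histone acetyltransferase gene, was at 62.9 in the series list, 38.6 in replicate 1 and 30.4 in replicate 2, the last from another summit, at +862 bp where the first was at +272. Cdl-1, which encodes the protein that binds the stem-loop of histone messages, was at 57.4 in the series list, with 33.7 in replicate 1 (percentile 91.9) and 13.9 in replicate 2 (percentile 29.0), on opposite sides of the median of all genes. Chaf-2, a chromatin assembly factor subunit gene, was at 56.3, 29.2 and 23.5 in the same order.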

How the data were processed

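ChIP-seq was made from 2 biological replicates of 1 group, and fragments were sonicated to 200 to 800 bp, per the labels. The deposited ranked and passing region lists are on ce11, per the labels; the sources used here do not give the aligner, peak caller, versions, read length or sequencing depth. The deposited signal is the authors' value per region on an unstated scale, and the deposited lists also hold the −log10 of the global IDR, converted here to the IDR. The series lists use both replicates.

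Genes and starts are from Ensembl release 115 (WBcel235, the same coordinates as ce11), with names and products from RefSeq by gene ID, since Ensembl names identical copies alike; 12 mitochondrial genes were left out. A summit is the region start plus its offset, written 1-based. Percentiles give genes without a region their shared mid-rank. Words were counted over the 6 nuclear chromosomes. No test was run; counts and medians stand beside those of all genes. Scripts (Python 3.11.15, pandas 2.3.3, numpy 2.4.6, Biopython 1.88 for alignments, matplotlib 3.10.9) were tested on simulated data. Alternatives were other windows, lists, overlap, cluster distances, sharing rules and a filter on uniqueness.

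The genes and lists were chosen with earlier results of these data known. Named genes were the 10 of highest signal, each single gene, each gene without a region in 3 lists, those with a global IDR of 0.05 or lower, the 3 whose replicates differ most (his-2 tied with the last), and the 3 highest of each comparison list. His-34, his-17, his-18, his-39, his-69, his-70, his-29, his-30, his-57 and his-58, the 2 pairs shown for sequence, and GGGGACA, were chosen after their values were seen.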

Additional observations from a re-analysis of the deposited data

How the results depend on the processing

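The median percentile of the histone genes, 19.94 in the main setting, lay between 15.4 and 22.32 with windows of 500 or 2000 bp, the conservative list, any overlap or the upper part of the ranked regions, and between 16.07 and 24.18 in single replicates. It was 6.867 with each region given only to its nearest gene. With each shared region counted once, 57 genes were left, among them all 29 without a region. The median was then bound to be the lowest value, 3.36, so nothing is read from it. The number with a region is given with the share of all genes in brackets. It was 43 (93.3%) in the main setting, 37 (82.9%) at 500 bp and 58 (96.0%) at 2000 bp. The conservative list gave 43 (92.2%), any overlap 46 (94.2%), replicate 1 44 (91.6%) and replicate 2 40 (87.4%). The upper part of the ranked regions gave 36 (81.5%) and the nearest-gene setting 36 (91.2%). With shared regions counted once, 28 of the 57 genes left had a region. No setting gave a histone gene a passing region. The count was 0 in each, where 12 to 219 of all 19973 genes had one. The clustered minus single difference, −55.32, was −53.71 at 500 bp, −27.22 at 2000 bp, −52.3 in the conservative list, −47.87 with any overlap, −63.11 with shared regions once, −57.19 in the upper part of the ranked regions, −49.44 to −49.25 in single replicates, and unchanged by cluster distances of 2000 or 10000 bp. With shared regions once, the 52 clustered genes left included all 29 without a region, so their median was bound to be the lowest value. Restricting to genes with at least 95% unique words, chosen after the data were seen, left 13 histone genes, all 13 with a region, a median percentile of 73.9 among the 16713 genes past that limit (74.5 among all genes) and a difference of 9.837, reversed in sign. Fewer genes are in that setting, several of its clustered genes share a best region, and otherwise the cause was not tested.

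No paired analysis was possible because the study has 1 group. Depth is unknown, so no interval or floor is given.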

Other observations

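Of the 50-base words of the 6 nuclear chromosomes, 6.49% occur more than once. Around the summits, 1.26% of the 126002 series regions had under 25% unique words in 300 bases, with 1.03% in replicate 1 and 0.870% in replicate 2. The first is a share of words and the others are shares of summits, so no direction is read from them. Of the 250 passing series regions, 4 lay in such sequence. Smaller empty stretches also lay over histone clusters on IV: 4107 bp around his-47, his-48, his-46 and his-45, 3756 bp around his-55, his-56 and his-58, and 3000 bp around his-29 and his-30.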
